A study of Mus musculus with 16 samples.

Results

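The 44 protein-coding collagen chain genes in the count table, those whose symbol is Col, a number, a and a number, were described among the 25054 genes counted in 16 mouse osteosarcomas. They were sorted by collagen class into 11 fibrillar, 9 network-forming, 9 FACIT, 4 transmembrane, 6 beaded filament and 2 multiplexin chains and 3 that belong to none of these. The study asked what loss of *Arid1a*, which codes for a DNA-binding subunit of a chromatin remodeling complex, changes in the transcriptome of such tumors. Both groups carried OsxCreERT2+/-;p53 fl/fl;Rb1 fl/fl, so *Trp53* and *Rb1* were floxed in the controls too. In these mice tamoxifen, given at 400 µg/g and 1 month of age, activates Cre in pre-osteoblasts that express *Osterix*. The 8 KO tumors also carried Arid1a fl/fl and came from 8 mice, known by the names Massa, Medusa, Montana, Ohio, Prince, Grilka, Zelda and Oregon. The 8 WT tumors came from 4 mice: mouse N42 gave 4, N43 gave 2, and N215 and N25 gave 1 each. The mice were male and female and older than 6 months, and a body site was labeled for the WT tumors only. Tumors of 1 WT mouse are not separate animals, so p-values over the 16 tumors measure a spread that is partly within mice.

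Collagens are triple-helical proteins of the extracellular matrix, wound from chains that repeat a triplet beginning with glycine. The fibrillar collagens build the fibrils that carry load, and type I, which osteoblasts lay down as osteoid, makes up most of the organic matrix of bone. Network-forming collagens build sheets such as basement membranes. FACIT collagens sit on the surface of fibrils, transmembrane collagens span the cell membrane, and type VI forms beaded filaments around cells. Making osteoid is a defining trait of osteosarcoma.

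Gene counts ran from 1109487 to 15059640 per KO tumor and from 7806160 to 16962329 per WT tumor, so low genes were seen less well in KO. A count of 3 was worth 6.69 CPM in Massa and 4.03 CPM in Grilka, but at most 0.340 CPM in any WT tumor. CPM are counts scaled to a common library size with TMM factors. These factors were 0.409 in Massa, 0.414 in Grilka and 1.15 to 1.44 in WT, and a low factor raises CPM. *Arid1a*, counted over the whole gene, had 107 to 270 CPM in KO and 125 to 236 CPM in WT. The counts do not separate the floxed exons from the others. Several tumors held many reads of genes from other tissues. The largest of the summed CPM of the lung, skeletal muscle and salivary gland lists was 47.6 to 3790 times that of 12 osteoblast genes in Massa (lung), Montana and Oregon (muscle), Prince (salivary gland) and the WT tumor N25 lung. It was 29.4 times in N215 R hind limb (muscle) and at most 4.90 times in the other 10 tumors. The ratio also depends on the osteoblast genes. N43 pelvis had 33797 CPM of skeletal muscle genes, above the 11351 CPM of lung genes in Massa, but more of the osteoblast genes. Lists of liver and erythroid genes were not part of the ratio. In Zelda these summed to 1829 and 1488 CPM, against 1186 CPM of osteoblast genes. Of the osteoblast genes, 4 were at 0 counts in Massa, 3 in N215 R hind limb, 2 in Prince and 1 in Grilka. *Bglap*, the gene of osteocalcin, was at 0 in Massa and N215 R hind limb, and *Sp7* (*Osterix*) was at 0 in Massa. In whole tumors, fewer cells of a type and less RNA per cell cannot be told apart.

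The 249 or 250 bases before the start of 3 genes are shown. Of these, *Col8a2* and *Col3a1* were the members that differed between KO and WT. The third, *Col24a1*, differed when the tumors with the highest ratios of other-tissue to osteoblast genes were left out. The bases are from RefSeq (GRCm38.p6), 5′ to 3′ on the strand of the gene, which is the plus strand for all 3. They lie at chr4:126286544-126286792, chr1:45311288-45311537 and chr3:145292222-145292471. Capitals mark GGGCGG, known as the GC box. They also mark the TATA box, searched as TATAAA. The third motif searched was CCAAT, and each was searched on both strands.
Col8a2: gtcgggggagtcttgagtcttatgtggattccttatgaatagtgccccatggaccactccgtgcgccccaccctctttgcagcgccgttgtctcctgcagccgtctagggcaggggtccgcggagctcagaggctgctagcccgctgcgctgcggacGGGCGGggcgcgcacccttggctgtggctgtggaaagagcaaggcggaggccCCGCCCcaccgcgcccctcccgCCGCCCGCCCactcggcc
Col3a1: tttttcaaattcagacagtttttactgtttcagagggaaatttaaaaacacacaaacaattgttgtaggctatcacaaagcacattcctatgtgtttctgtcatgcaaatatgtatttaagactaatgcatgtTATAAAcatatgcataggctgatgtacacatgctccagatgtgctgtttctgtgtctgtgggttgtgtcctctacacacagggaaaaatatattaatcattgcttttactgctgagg
Col24a1: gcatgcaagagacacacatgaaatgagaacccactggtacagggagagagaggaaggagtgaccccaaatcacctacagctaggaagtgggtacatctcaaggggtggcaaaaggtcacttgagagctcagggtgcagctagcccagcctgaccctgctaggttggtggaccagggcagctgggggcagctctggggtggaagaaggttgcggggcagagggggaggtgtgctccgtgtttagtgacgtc

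The 3 windows differ in base composition, with 69.9% G and C before *Col8a2*, 58.0% before *Col24a1* and 35.2% before *Col3a1*. The window of *Col8a2* held GGGCGG 4 times, of which 2 overlap each other, that of *Col3a1* held TATAAA once, 117 bases before the start, and that of *Col24a1* held none of the 3 motifs. RefSeq windows of 300 bases, which add the 50 bases after the start, were found for 35 of the 44 members. GGGCGG occurred in 62.9% of these and in 38.2% of the windows of all 27025 genes in the table. CCAAT occurred in 37.1% against 41.1%, and TATAAA in 14.3% against 15.7%. A match is a description of the letters and not a site.

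Collagen genes took a smaller mean part of the reads in KO tumors. Their share of all counts was 1.89% ± 1.89 (SD, n = 8) in KO and 7.16% ± 4.36 (SD, n = 8 tumors of 4 mice) in WT. The WT mean gives most weight to N42 and N43, and the shares of N215 and N25 lay within the KO range. In KO the share was 0.250% in Massa, 4.90% in Medusa, 0.390% in Montana, 3.99% in Ohio, 0.194% in Prince, 2.94% in Grilka, 2.17% in Zelda and 0.320% in Oregon. In WT it was 10.6% in N43 spine, 9.69% in N42 R pelvis, 2.22% in N215 R hind limb, 10.8% in N42 R femur, 3.29% in N42 L limb, 11.97% in N42 L shoulder, 0.913% in N25 lung and 7.81% in N43 pelvis. The groups overlapped, since 4 KO tumors lay above N25 lung. Of these, Medusa and Ohio also lay above N42 L limb and N215 R hind limb, and Grilka above N215 R hind limb. The 5 lowest shares were those of the 5 tumors with the most reads from other tissues relative to osteoblast genes. That ratio divides by osteoblast genes, and osteoblasts lay down type I collagen, so this match is partly built in. No test was made of the summed share of the members. The 95% Wilson intervals of these shares reach at most 0.0246 percentage points to either side and cover counting error only. Of the counts on protein-coding genes, collagens took 8.83% in Grilka and 0.578% in Massa, the 2 shallowest libraries. Protein-coding genes held only 603051 of 1812818 counts in Grilka and 480534 of 1109487 in Massa. On this measure Grilka lay above N43 pelvis (8.47%), N42 L limb (3.58%), N215 R hind limb (2.77%) and N25 lung (0.994%). It lay below N43 spine (11.3%), N42 R pelvis (10.5%), N42 R femur (11.6%) and N42 L shoulder (12.7%).

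Fibrillar chains held most of the collagen counts, with a median of 78.7% in KO (37.6% to 91.3%) and 88.2% in WT (45.7% to 91.9%). *Col1a1* and *Col1a2*, the chains of type I, together took 19.9% of collagen counts in Prince and 22.3% in N215 R hind limb, but 81.4% in N43 pelvis. Network chains took 30.2% in Prince, 31.7% in N215 R hind limb and 22.2% in N25 lung, against a median of 3.35% in WT. The type VI chains took 24.9% in Massa, where the median of KO was 6.45%. Zelda, with a collagen share close to that of N215 R hind limb, had 86.1% fibrillar and 4.35% network counts.

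**Figure D1:**
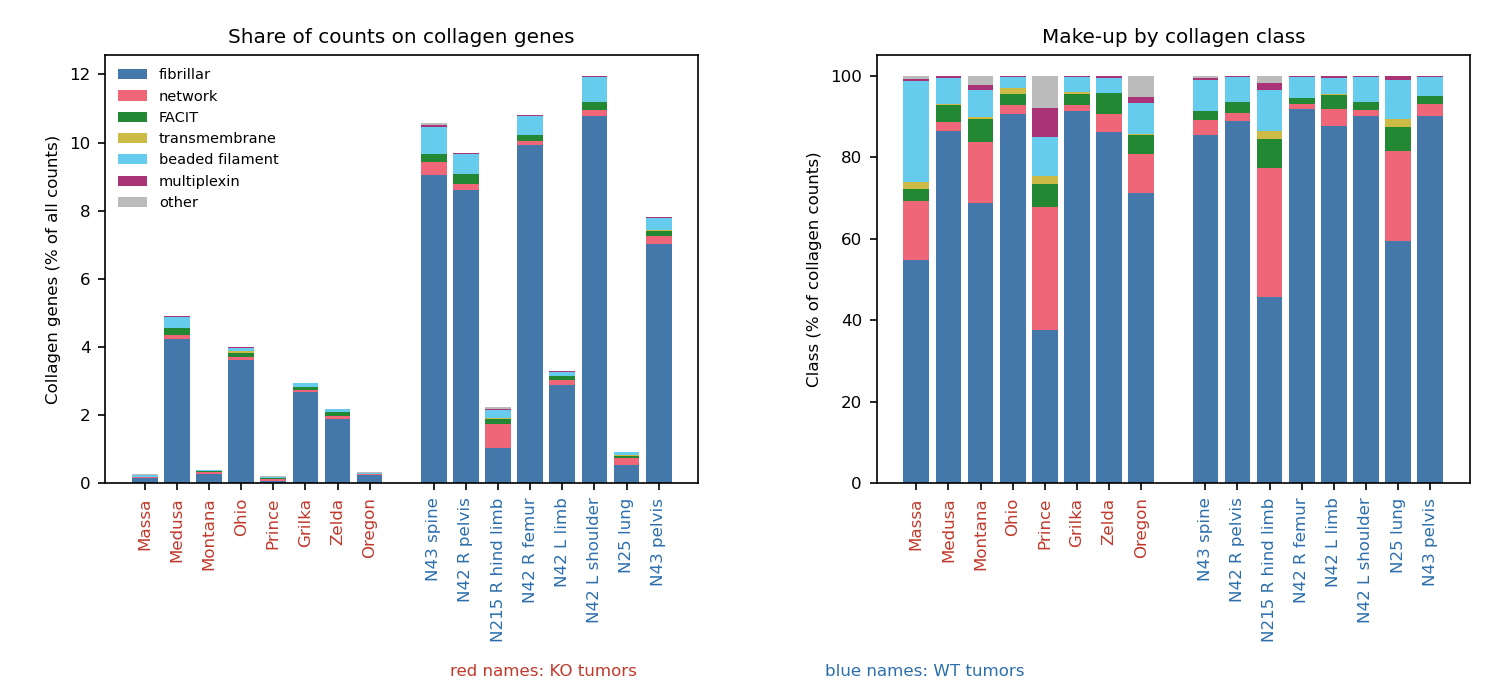
Percent of all counts on collagen genes (left) and percent of collagen counts in each class (right), 1 bar per tumor, with KO names in red and WT names in blue. Massa, Montana, Prince, Oregon and N25 lung stay below 1% of all counts, and fibrillar chains hold under 50% of collagen counts only in Prince and N215 R hind limb.

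Of the 44 members, 36 passed edgeR's filter on low counts and 2 differed between the genotypes, both lower in KO. The test was edgeR's two-sided quasi-likelihood test over all 15413 genes that passed, with Benjamini-Hochberg adjustment and a threshold of 0.05. It called 2 collagen genes lower, *Col8a2* and *Col3a1*, and 0 higher, where 2.15% of all tested genes were lower and 1.86% were higher. At an unadjusted p under 0.05 there were 8 members lower and 1 higher, where 9.75% of all genes were lower and 13.3% higher. The estimate was below 0 for 26 members and above 0 for 10. Changes are given as log2 KO/WT, the fitted log2 fold change of KO over WT, with its SE (standard error of the estimate). The median log2 KO/WT of the tested members was −0.77, and that of all tested genes was 0.10. A median of −0.77 was seen in the fibrillar chains, −1.38 in the network chains, −0.72 in the FACIT chains, 0.94 in the transmembrane chains, −1.35 in the beaded filament chains and −1.17 in the multiplexins. The count depended on the test. DESeq2 with default settings called 7 members lower, where 4.77% of all genes with an adjusted p were lower, and 4 higher, where 7.76% were higher. With the counts summed per mouse, edgeR called 1 member lower, *Col8a2*, and 0 higher, where 0.025% of all genes were lower and 0.0375% higher. A limma-voom fit with the mouse as a random effect called 0 of the 36 members and 17 genes in all.

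**Figure D2:**
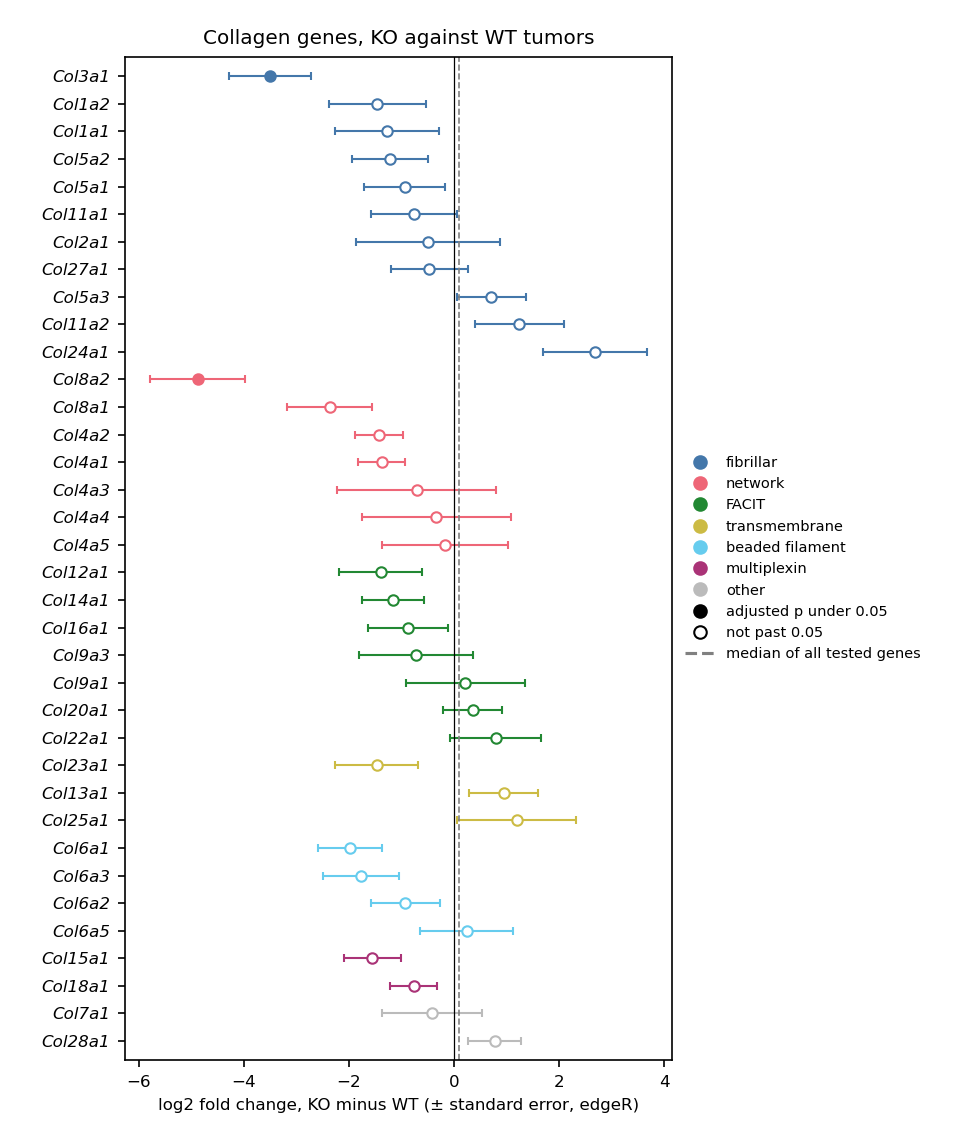
Log2 KO/WT of the 36 tested collagen genes with its SE, sorted within class (edgeR, n = 8 and 8). Filled points passed the threshold, and only Col3a1 at −3.51 and Col8a2 at −4.88 did so; the dashed line is the median of all tested genes, 0.10.

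Among the fibrillar chains, *Col3a1* was lower in KO. It codes for the single chain of type III collagen, which is found with type I in soft tissue and in healing wounds, and lies on chromosome 1 from 45311538 to 45349706 of GRCm38. Its CPM was 167 in Massa, 1372 in Medusa, 436 in Montana, 299 in Ohio, 237 in Prince, 709 in Grilka, 148 in Zelda and 378 in Oregon. In WT it was 19544 in N43 spine, 6603 in N42 R pelvis, 2116 in N215 R hind limb, 5641 in N42 R femur, 632 in N42 L limb, 6430 in N42 L shoulder, 701 in N25 lung and 975 in N43 pelvis. The groups overlapped through Medusa and Grilka on one side and N42 L limb, N25 lung and N43 pelvis on the other. The log2 KO/WT was −3.51 (SE 0.78, edgeR adjusted p = 0.0203). With counts summed per mouse it was −3.17 (edgeR adjusted p = 0.238). Without the 4 tumors of N42 it was −3.61 (edgeR adjusted p = 0.292). In limma-voom it was −2.64 (adjusted p = 0.570). The call was lost in each of these fits, which called 10, 8 and 17 genes in all, against 618 over the 16 tumors. The fit without N42 still treats the tumors of N43 as separate animals.

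The genes of type I collagen did not pass the threshold. *Col1a1* ran from 214 CPM (Prince) over a median of 3979 to 36201 (Grilka) in KO, and from 1561 (N25 lung) over 32526 to 47558 (N42 L shoulder) in WT. Prince and Oregon lay below every WT tumor. Grilka was the only KO tumor within the range of the 5 highest WT tumors, on a CPM raised by its TMM factor of 0.414. The low end was made up of N25 lung, N215 R hind limb and the 4 KO tumors with the highest ratios of other-tissue to osteoblast genes. The log2 KO/WT was −1.27 for *Col1a1* (SE 0.99, edgeR adjusted p = 0.472) and −1.46 for *Col1a2* (SE 0.92, edgeR adjusted p = 0.354). Per kilobase of exon these were the most abundant members, with medians over the 16 tumors of 1734 CPM per kb for *Col1a1* and 703 for *Col1a2*, followed by 146 for *Col5a2*.

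The type V chains *Col5a1* and *Col5a2*, which set the diameter of type I fibrils, had log2 KO/WT values of −0.94 and −1.22 (edgeR adjusted p = 0.494 and 0.326). *Col11a1* of type XI, a cartilage collagen also made by osteoblasts, had −0.77 (edgeR adjusted p = 0.614). Prince was the lowest KO tumor and N25 lung the lowest WT tumor for each of *Col1a1*, *Col1a2*, *Col5a1*, *Col5a2*, *Col11a1*, *Col11a2* and *Col24a1*. Estimates above 0 were seen for *Col5a3* (0.71), *Col11a2* (1.24) and *Col24a1* (2.68), none past the threshold. *Col2a1*, the main collagen of cartilage, was at or above 100 CPM in Ohio (211), Grilka (114), Oregon (119), N215 R hind limb (113) and N43 pelvis (489) and below 20 CPM elsewhere. *Col27a1*, another cartilage chain, had its highest value in N215 R hind limb (497 CPM).

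*Col24a1* is a fibrillar collagen known from developing bone, and was chosen for description after its values were seen. It had 8.92 CPM in Massa, 204 in Medusa, 10.5 in Montana, 399 in Ohio, 0.332 in Prince, 659 in Grilka, 64.7 in Zelda and 19.3 in Oregon. The WT tumors lay between 3.55 CPM (N25 lung) and 48.0 CPM (N43 spine), with a median of 22.8. Medusa, Ohio, Grilka and Zelda were above every WT tumor, while the other 4 KO tumors lay within or below the WT range. Its log2 KO/WT was 2.68 (SE 0.99, edgeR adjusted p = 0.119), and DESeq2 called it (adjusted p = 0.0246).

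Of the network-forming chains, *Col8a2* was lower in KO, and its KO and WT values did not overlap. It codes for a chain of type VIII collagen, a short chain known from the Descemet membrane of the cornea and from vessel walls, and lies on chromosome 4 from 126286793 to 126314330. KO tumors had 4.46 CPM (Massa), 8.03 (Medusa), 3.06 (Montana), 3.15 (Ohio), 3.57 (Prince), 14.8 (Grilka), 3.32 (Zelda) and 1.96 (Oregon). WT tumors had 595 CPM (N43 spine), 49.7 (N42 R pelvis), 385 (N215 R hind limb), 15.4 (N42 R femur), 18.8 (N42 L limb), 32.8 (N42 L shoulder), 28.7 (N25 lung) and 20.2 (N43 pelvis). Grilka and N42 R femur nearly met, and 2 WT tumors, N43 spine and N215 R hind limb, stood far above the others. The KO values rest on few reads, with 2 counts in Massa, 7 in Oregon, 11 in Grilka, 12 in Montana and 33 to 49 in the rest. The lack of overlap between Grilka and N42 R femur (272 counts) therefore depends on very few reads in Grilka. N43 spine alone held 50.1% of the CPM summed over the 16 tumors. The log2 KO/WT was −4.88 (SE 0.91, edgeR adjusted p = 0.0111), and −5.18 with counts summed per mouse (edgeR adjusted p = 0.0195). In limma-voom it was −4.10 (adjusted p = 0.455), and in DESeq2, which replaced the N43 spine count as an outlier, −3.80 (adjusted p = 1.26e-05). *Col8a2* was 1 member that did not overlap among 36 tested, where 0.208% of all tested genes did not overlap and were lower in KO. As many, 0.208%, did not overlap and were higher, with no member among them.

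Its partner *Col8a1* ran from 7.06 to 261 CPM in KO (median 21.7) and from 19.1 to 735 CPM in WT (median 331). Zelda lay among the WT tumors, and N25 lung was below Medusa, Montana, Ohio, Grilka and Zelda. For this gene log2 KO/WT was −2.37 (SE 0.80, edgeR adjusted p = 0.0894). *Col4a1* and *Col4a2*, the chains of nearly all basement membranes, had log2 KO/WT values of −1.38 and −1.43 (SEs 0.44 and 0.45, edgeR adjusted p = 0.0745 and 0.0738). *Col4a1* lay between 236 and 610 CPM in KO and between 462 and 3203 CPM in WT. The highest WT tumor for both, N215 R hind limb, held 29.1% and 31.8% of the summed CPM.

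*Col4a3*, *Col4a4*, *Col4a5* and *Col4a6*, the chains of specialized basement membranes such as those of the kidney glomerulus and lung alveolus, were highest in 2 tumors. *Col4a3* was at 141 CPM in Massa and 213 in N25 lung, against at most 20.5 in the other 14 tumors. *Col4a4* was at 203 and 218 CPM there, *Col4a5* at 71.4 and 130 CPM, and *Col4a6* at 20.1 and 47.7 CPM. These were also the 2 tumors with the highest sums over 8 lung genes, 11351 and 26604 CPM, where the others had at most 77.5 CPM. The part of lung RNA in these levels was not tested, and *Col4a3* shares 563 bases of exon with *C430014B12Rik* on the opposite strand. *Col4a3* had a log2 KO/WT of −0.71 (SE 1.51, edgeR adjusted p = 0.825) and 2.09 without N25 lung (edgeR adjusted p = 0.363). DESeq2 called *Col4a5* and *Col4a6* higher in KO with the N25 lung count replaced as an outlier, and called neither when no count was replaced. *Col10a1*, the collagen of hypertrophic cartilage, was not tested. It had 10.6 CPM in Oregon, 3.29 CPM in N215 R hind limb and 3 counts or fewer in 9 tumors.

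No FACIT chain passed the threshold. *Col12a1*, a chain that links type I fibrils, ran from 6.14 CPM (Prince) to 1387 (Medusa) in KO and from 306 (N25 lung) to 1669 (N42 R pelvis) in WT, with a log2 KO/WT of −1.40 (SE 0.79, edgeR adjusted p = 0.299). *Col16a1* had −0.88 (edgeR adjusted p = 0.518), and its highest values were 795 CPM in N43 spine, 596 in Grilka and 572 in N215 R hind limb. *Col22a1*, known from tissue junctions such as that of muscle and tendon, had 0.79 (SE 0.87, edgeR adjusted p = 0.629). Its KO values were 64.7 CPM in Massa, 477 in Medusa, 43.4 in Montana, 499 in Ohio, 0.0830 in Prince, 642 in Grilka, 344 in Zelda and 61.0 in Oregon, and WT ran from 10.3 CPM (N25 lung) over 159 to 263 (N42 L shoulder). Medusa, Ohio, Grilka and Zelda were again above every WT tumor. Of the type IX chains of cartilage, *Col9a1* was highest in Grilka (16.1 CPM) and N215 R hind limb (15.9 CPM), while *Col9a2* and *Col9a3* were highest in N215 R hind limb (75.2 and 52.1 CPM) and Oregon (13.4 and 17.3 CPM). N215 R hind limb held 75.3% of the summed CPM of *Col9a2*, which was not tested, and 56.6% of that of *Col9a3*. The estimate for *Col9a3* changed sign, from −0.72 (edgeR adjusted p = 0.737) to 2.23 without N215 R hind limb (edgeR adjusted p = 0.0712) and 2.12 in DESeq2, which replaced that count (adjusted p = 0.0170). *Col9a3* shares 234 bases of exon with *Tcfl5* on the opposite strand, and whether the counting used strand is not given in the sources used here, so reads there cannot be told apart. *Col19a1*, also not tested, had 11.7 CPM in Oregon, 9.44 in Montana and at most 6.82 elsewhere.

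The transmembrane chains differed in direction, and none passed the threshold. *Col13a1*, found at cell adhesions, had a log2 KO/WT of 0.94 (edgeR adjusted p = 0.410), and *Col25a1* had 1.19 (edgeR adjusted p = 0.566). *Col23a1* had −1.47 (edgeR adjusted p = 0.273). For *Col25a1*, Ohio alone held 48.9% of the summed CPM (296 CPM), and without Ohio the estimate was −0.43 (edgeR adjusted p = 0.845). *Col17a1*, which anchors basal epithelial cells to the basement membrane, had 35.8 CPM in Prince and at most 3.10 CPM in the other 15 tumors. Prince had the highest sum over 8 epithelial genes, 1389 CPM. The part of epithelial RNA in this level was not tested.

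No chain of type VI collagen, which surrounds muscle, fat and mesenchymal cells, passed the threshold. Of the 4 tested, 3 had estimates below 0, and *Col6a5* had 0.24 (edgeR adjusted p = 0.905). The log2 KO/WT was −1.98 for *Col6a1* (SE 0.60, edgeR adjusted p = 0.0662), −0.93 for *Col6a2* (edgeR adjusted p = 0.418) and −1.77 for *Col6a3* (edgeR adjusted p = 0.154). *Col6a1* ran from 48.6 to 579 CPM in KO and from 163 to 1825 CPM in WT. DESeq2 called it (adjusted p = 0.0121), and so did edgeR without N25 lung (adjusted p = 0.0404) or without Medusa (adjusted p = 0.0451). Massa had the highest KO value of *Col6a2*, 1204 CPM, and the lowest KO value of *Col6a3*, 78.1 CPM. *Col6a4*, *Col6a5* and *Col6a6*, which lie in a row on chromosome 9, were at most 28.2 CPM in any tumor. *Col6a6* was highest in Oregon (28.2 CPM) and Montana (11.5 CPM), the 2 tumors with the highest sums over 14 skeletal muscle genes, and this relation was not tested.

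The multiplexins *Col15a1* and *Col18a1*, basement membrane proteins whose ends give fragments that inhibit vessel growth, had log2 KO/WT values of −1.56 (SE 0.54, edgeR adjusted p = 0.0994) and −0.77 (SE 0.45, edgeR adjusted p = 0.315). *Col7a1*, the chain of the anchoring fibrils of skin, had −0.42 (edgeR adjusted p = 0.836). It was at 466 CPM in N43 spine, 339 in N215 R hind limb and 272 in Oregon, and had a WT median of 14.3 CPM. *Col26a1*, not tested, had 113 CPM in N43 spine, which was 83.7% of its summed CPM, and 13.6 CPM in N215 R hind limb. *Col28a1* was at most 4.65 CPM in any tumor, with a log2 KO/WT of 0.77 (edgeR adjusted p = 0.371).

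**Figure D3:**
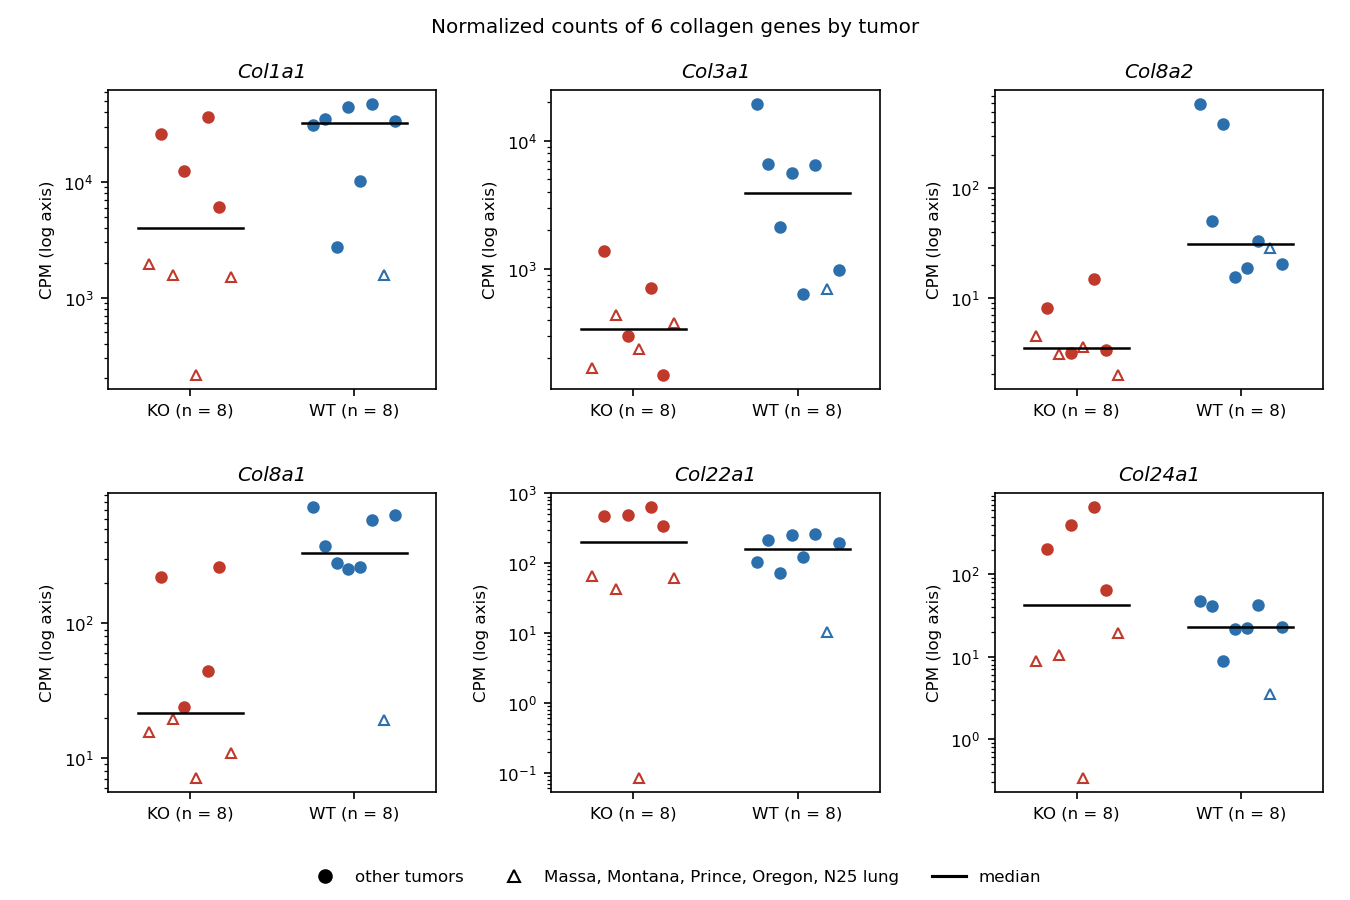
Normalized counts (CPM, log axis) of 6 collagen genes, 1 point per tumor, with the median of each group as a line. Triangles mark the 5 tumors with the highest ratio of lung, muscle or salivary gland genes to osteoblast genes. Col8a2 does not overlap between KO and WT, and for Col24a1 and Col22a1 the 4 KO tumors drawn as circles lie above every WT tumor. Counts of Col8a2 in KO run from 2 (Massa) to 49 (Zelda).

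The calls changed when the tumors with the highest ratios of other-tissue to osteoblast genes were left out. This alternative was chosen after the data were seen. Without Massa, Montana, Prince, Oregon and N25 lung, 4 KO and 7 WT tumors of 3 WT mice remained. edgeR then called 0 members lower, where 3.21% of all genes were lower, and 2 higher, where 3.7% were higher. These were *Col24a1* (64.7 to 659 CPM against 8.73 to 48.0 CPM, log2 KO/WT 3.45, SE 0.55, edgeR adjusted p = 0.0120) and *Col22a1* (344 to 642 CPM against 71.9 to 263 CPM, log2 KO/WT 1.48, SE 0.36, edgeR adjusted p = 0.0333). Neither overlapped between the groups, where 2.31% of all genes did not overlap and were higher. The KO tumors left out held the lowest KO values of both genes, at most 19.3 CPM of *Col24a1* and 64.7 CPM of *Col22a1*. The lack of overlap and these p-values therefore follow in part from the choice of tumors. *Col8a2* was the only member without overlap that was lower, where 3.06% of all genes were so. Its log2 KO/WT was −4.66 (edgeR adjusted p = 0.0510), and that of *Col3a1* was −3.25 (edgeR adjusted p = 0.0700). When N215 R hind limb was left out too, the WT tumors were the 6 of N42 and N43, and 2 members were lower, where 7.36% of all genes were lower. They were *Col8a2* (−4.31, edgeR adjusted p = 0.0411) and *Col3a1* (−3.39, edgeR adjusted p = 0.0416). In this fit 4 members were higher, where 8.36% of all genes were higher. They were *Col24a1* (3.30, edgeR adjusted p = 0.00324), *Col22a1* (1.35, edgeR adjusted p = 0.0156), *Col13a1* (2.23, edgeR adjusted p = 0.0214) and *Col25a1* (3.02, edgeR adjusted p = 0.0366). With only 2 WT mice, the WT part of the spread behind these p-values is largely between tumors of the same animals.

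DESeq2 replaces counts it takes for outliers in groups of this size, and it did so for 14 counts of 11 members. When none was replaced it called 8 members lower, where 4.21% of all genes were lower, and 1 higher, *Col24a1*, where 7.91% were higher. *Col4a5*, *Col4a6* and *Col9a3* were called higher only with replacement. *Col26a1* was called lower only without it.

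The ratio of 2 chains in the same tumor needs no normalization between libraries, and since gene lengths were not divided out it compares tumors and not the chains with each other. In 8 pairs, log2 ratios of the counts (each plus 0.5) were averaged per mouse and compared between 8 KO and 4 WT mice with a two-sided exact permutation test, whose smallest possible p is 0.00404. No pair passed after Benjamini-Hochberg adjustment over the 8 pairs. *Col1a1*/*Col1a2* had a log2 ratio of 0.66 ± 0.51 (SD, n = 8 mice) in KO and 0.67 ± 0.10 (SD, n = 4 mice) in WT (exact permutation test, p = 0.913, adjusted p = 0.949). Over the 16 tumors this ratio had an SD of 0.36, while the log2 CPM of the genes had SDs of 2.37 and 2.24. It lay between 0.38 and 0.88 in every WT tumor, and between −0.33 (Prince) and 1.21 (Massa) in KO. *Col4a1*/*Col4a2* was 0.64 ± 0.26 in KO and 0.63 ± 0.12 in WT (SD, n = 8 and 4 mice, exact permutation test, p = 0.949), with an SD of 0.20 over the tumors against 0.95 and 0.96 for the genes. These 2 genes lie head to head on chromosome 8 with starts that overlap by 22 bases.

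*Col6a1*/*Col6a2* had the smallest p. The log2 ratio was −0.71 ± 0.62 in KO (SD, n = 8 mice) and 0.05 ± 0.36 in WT (SD, n = 4 mice), a difference of −0.76 (exact permutation test, p = 0.0121, adjusted p = 0.0970). It was below 0 in all 8 KO tumors, from −2.20 (Massa) to −0.25 (Zelda). In WT it was −0.45 in N215 R hind limb, −0.01 in N43 pelvis and 0.05 to 0.58 in the other 6 tumors. The groups overlapped through N215 R hind limb alone. Without Massa the difference was −0.54 (exact permutation test, adjusted p = 0.145).

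The other 5 pairs did not pass either. Over the 16 tumors the SD of the log2 ratio was 1.99 for *Col8a1*/*Col8a2* and 1.90 for *Col3a1*/*Col1a1*. *Col3a1*/*Col1a1* ran from −5.67 (Grilka) to 0.15 (Prince) in KO and from −5.11 (N43 pelvis) to −0.37 (N215 R hind limb) in WT, a difference of −1.61 (exact permutation test, p = 0.194, adjusted p = 0.582). *Col8a1*/*Col8a2* ran from 0.97 to 6.28 in KO and from −0.58 to 4.99 in WT, a difference of 1.55 (exact permutation test, p = 0.218, adjusted p = 0.582). *Col5a1*/*Col5a2* differed by 0.11, *Col6a3*/*Col6a1* by −0.33 and *Col11a1*/*Col5a1* by −0.15, each with an adjusted p of 0.949 in the exact permutation test.

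**Figure D4:**
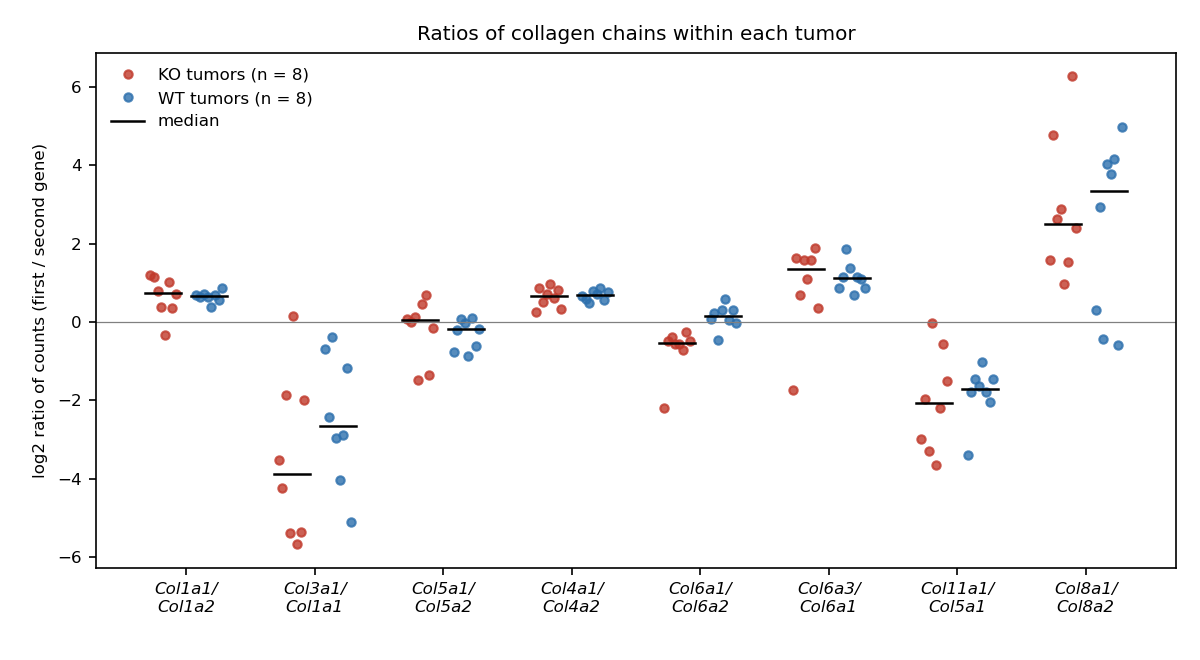
Log2 ratio of the counts of 2 collagen chains in each tumor, KO in red and WT in blue (n = 8 each), with medians as lines. Col1a1/Col1a2 and Col4a1/Col4a2 vary least over the tumors (SD 0.36 and 0.20), Col6a1/Col6a2 is below 0 in all 8 KO tumors, and Col8a1/Col8a2 spreads from −0.58 to 6.28.

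Tumors of the same mouse differed as well. Between N43 spine and N43 pelvis, 5 of the 43 members with more than 3 counts in each differed over 10-fold, and the median fold was 2.14. *Col2a1* was 254-fold higher in the pelvis tumor (489 against 1.92 CPM). In the spine tumor *Col7a1* was 44.6-fold higher, *Col8a2* 29.5-fold (595 against 20.2 CPM), *Col3a1* 20.0-fold (19544 against 975 CPM) and *Col16a1* 11.8-fold. *Col1a1* and *Col12a1* differed by 1.08-fold and 1.01-fold between the same 2 tumors. Among the 4 tumors of N42 the median fold from the lowest to the highest was 3.93 over 35 members, and *Col3a1* ran from 632 CPM in the left limb to 6603 CPM in the right pelvis. The within-mouse SD of log2 CPM exceeded the SD of the WT mouse means in 7 of the 36 tested members. The SD of log2 CPM was larger in KO than in WT for 25 of the 36, where it was for 90.4% of all tested genes.

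**Figure D5:**
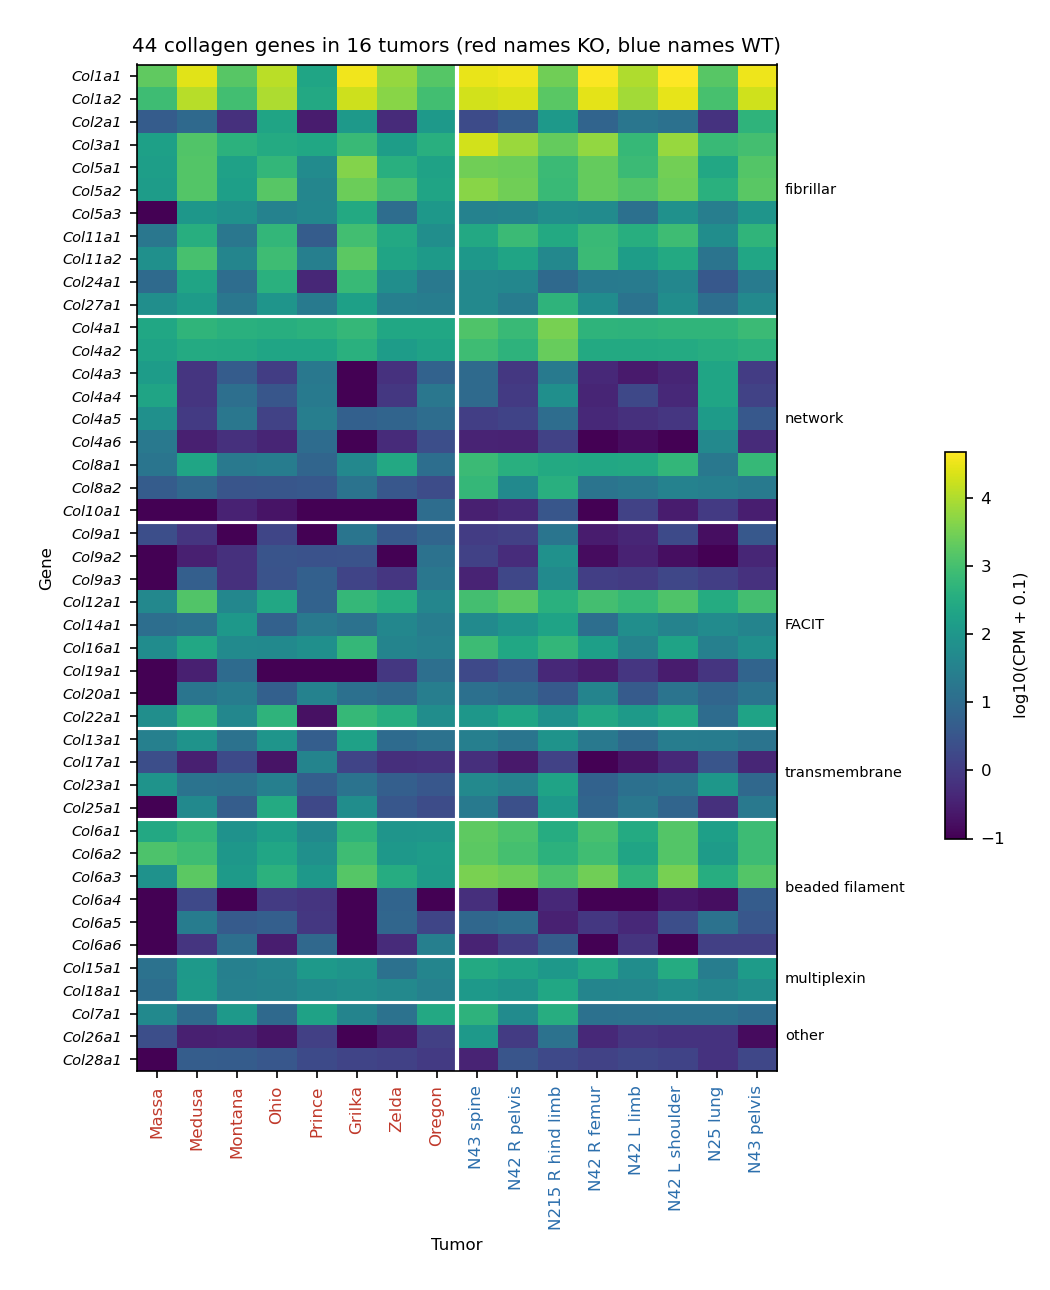
Levels of the 44 collagen genes in the 16 tumors as log10(CPM + 0.1), grouped by class, with KO names in red and WT names in blue. Col4a3 to Col4a6 are brightest in Massa and N25 lung, and Col9a2 and Col9a3 are brightest in N215 R hind limb.

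The classes also differ in gene structure, which the counts did not use. In the longest coding transcript of each gene in GENCODE vM21, coding exons of exactly 54 bases made up 47.0% of 649 exons in the fibrillar genes, 25.2% of 432 in the FACIT genes, 4.0% of 302 in the network genes and 8.9% of 158 in the transmembrane genes. An exon of 54 bases codes for 6 repeats of the glycine triplet. Coding exons whose length is a multiple of 9 bases were 82.4% of those of the fibrillar genes and 45.0% of those of the network genes. *Col8a1*, *Col8a2* and *Col10a1* have 2 coding exons each, against 45 to 53 in the type IV genes. Besides *Col4a1* and *Col4a2*, the type IV genes *Col4a3* and *Col4a4* lie head to head with 71 bases between them on chromosome 1, as do *Col4a5* and *Col4a6* with 1308 bases on the X chromosome. *Col3a1* and *Col5a2* lie tail to tail, 24614 bases apart, and had log2 KO/WT values of −3.51 and −1.22.

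Of the genes that make, process and bind collagen, 5 were called, all lower in KO. Of 23 synthesis genes, which modify, fold and export procollagen in the endoplasmic reticulum, 2 were lower, where 2.15% of all tested genes were. They were *Plod1*, a lysyl hydroxylase (11.2 to 64.2 CPM in KO and 30.0 to 180 CPM in WT, log2 KO/WT −1.61, SE 0.36, edgeR adjusted p = 0.0194), and *P4ha3*, a prolyl hydroxylase subunit (0 to 6.71 CPM and 2.90 to 26.4 CPM, log2 KO/WT −3.12, SE 0.75, edgeR adjusted p = 0.0293). The most abundant of this list, *Sparc*, a collagen-binding matrix protein, had −2.13 (edgeR adjusted p = 0.0881). Of 12 tested processing genes, which trim procollagen and crosslink fibrils, 3 were lower. These were the lysyl oxidase-like *Loxl2* (6.69 to 41.6 CPM in KO and 32.5 to 258 CPM in WT, log2 KO/WT −2.85, edgeR adjusted p = 0.0112) and *Loxl1* (−1.63, edgeR adjusted p = 0.0181), and *Pcolce*, an enhancer of the procollagen C-proteinase (−1.83, edgeR adjusted p = 0.0313). *Lox*, the most abundant of them, had −2.31 (edgeR adjusted p = 0.0881). Of 8 tested collagen receptors edgeR called 0, with 4 at an unadjusted p under 0.05 (*Ddr1* higher, *Ddr2*, *Itga11* and *Mrc2* lower by estimate), and the most abundant, the endocytic receptor *Mrc2*, had −1.70 (edgeR adjusted p = 0.109). The medians of the 3 lists were −0.52, −1.47 and −0.19, beside 0.10 for all genes.

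Cell type markers were read in the same comparison, where 2.15% of all tested genes were called lower and 44.1% had an estimate below 0. Of 10 fibroblast genes, which include matrix genes that bone cells also make, 2 were called lower and 9 had estimates below 0, with sums of 542 to 3252 CPM in KO and 2116 to 16263 CPM in WT. The most abundant was *Fn1* (log2 KO/WT −2.55, edgeR adjusted p = 0.0558), and *Postn* was called (−3.22, edgeR adjusted p = 0.0261). Of 10 macrophage genes 7 were called, all lower, with sums of 297 to 2032 CPM in KO and 688 to 2560 CPM in WT. Of 11 tested osteoblast genes 0 were called and 8 had estimates below 0, with sums of 66.1 to 7024 CPM in KO and 300 to 7498 CPM in WT. Of 7 tested osteoclast genes 0 were called, all 7 estimates were below 0, and the median was −1.97. Of 14 skeletal muscle genes 0 were called, 13 estimates were above 0, and the median was 3.03. Their part in the lower *Col3a1* and *Col8a2* was not tested.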

How the data were processed

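RNA of 16 tumors was depleted of ribosomal RNA and sequenced for 50 cycles from one end. The authors aligned the reads with Novoalign 2.08.01 to mm10 joined with splice junctions of Ensembl build 74, allowed up to 50 alignments per read and kept the best, and deposited raw counts per gene made with USeq. They ran DESeq2 1.26.0 on them. All deposited values are whole numbers, and the smallest gene total is 6.

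Groups and mice were taken from the labels. Counts were fitted with edgeR 4.0.16 (R 4.3.3; TMM, filterByExpr with a minimum count of 10 and minimum total of 15, glmQLFit, glmQLFTest, no covariate). Log2 CPM used a prior count of 2. DESeq2 1.42.0 and limma 3.58.1 were alternatives. Fits were tested on simulated data, drawn as independent tumors with the same dispersion for every gene. That simulation could not show how the fits behave with shared mice or with the spread seen here. Exact permutation tests used scipy 1.17.1. Positions are from GENCODE vM21. The collagen genes, classes and lists were chosen with earlier results of these data known. Genes named were those past the threshold, the 3 most abundant per class, those of the chain pairs, those without overlap, and those with over 50% of their CPM in 1 tumor, and other genes named were chosen after their values were seen. Alternatives were other size factors, no filter, both other tools, counts summed per mouse, and leaving out each tumor, N25 lung or N42. Leaving out sets of tumors with high ratios of other-tissue to osteoblast genes, or the shallowest 2, was chosen after seeing the data. So was DESeq2 without replacing counts. Every count column was used.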

Additional observations from a re-analysis of the deposited data

Results flagged for a closer look

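The named genes and chain ratios in each genotype made 66 sets of 8 tumors. In 9 of these sets the lowest or highest tumor stood far from the others by Dixon's ratio. For independent sets not picked by their values, chance would give about 1 in 20, or 3.3 sets. That number cannot be used here, because some genes, such as *Col9a3*, were named for having most of their CPM in 1 tumor. The sets also reuse the same tumors, and some WT tumors share a mouse. The 9 sets are listed without a comparison with chance. Among KO tumors, Prince had 0.0830 CPM of *Col22a1*, where the others had 43.4 to 642 CPM. Massa had 0 counts of *Col28a1*, where the others had 0.839 to 4.65 CPM, but 3 counts were worth 6.69 CPM in that library. Massa also had the lowest log2 ratios of *Col6a1*/*Col6a2*, −2.20 against −0.70 to −0.25 in the others, and of *Col6a3*/*Col6a1*, −1.73 against 0.37 to 1.90. Among WT tumors, N25 lung had 61.7 CPM of *Col11a1* (others 266 to 840 CPM), 19.1 CPM of *Col8a1* (others 254 to 735 CPM) and 10.3 CPM of *Col22a1* (others 71.9 to 263 CPM). N215 R hind limb had 52.1 CPM of *Col9a3*, where the others had 0.275 to 1.51 CPM. N43 spine had a log2 ratio of *Col11a1*/*Col5a1* of −3.40, where the others lay between −2.04 and −1.02. Massa, Prince and N25 lung are among the 5 tumors richest in genes of lung, muscle or salivary gland relative to osteoblast genes, and the part of this in the values above was not tested.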

How the results depend on the processing

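No paired analysis was possible because the genotypes share no mice, and the replicate numbers only name tumors. Of the collagen genes, 2 were lower and 0 higher in KO. DESeq2 gave 7 and 4, and 8 and 1 without replacing outlying counts. Summed per mouse 1 was lower, where 10 genes were called in all. Without the 4 tumors of N42 1 was lower, where 8 genes were called in all. With limma-voom 0 were lower, where 17 genes were called in all. Without the 5 tumors with the highest ratios of other-tissue to osteoblast genes, 0 were lower and 2 higher. Without N215 R hind limb as well, 2 were lower and 4 were higher. These sets and the DESeq2 fit without replacement were chosen after seeing the data. Leaving out 1 tumor gave 2 to 3 lower, where 252 to 1348 genes were called in all, lower or higher.
Among the genes chosen by the naming rules above, signs changed for 8 that edgeR did not call over the 16 tumors. Of their values with the other sign only that of *Col9a3* in DESeq2 passed the threshold. Outside these genes, *Col4a5* went from −0.18 (edgeR adjusted p = 0.951) to 2.56 in DESeq2 (adjusted p = 0.0233), with the N25 lung count replaced. *Col11a1* was at 0.01 without N42, *Col4a3* at 2.09 without N25 lung (range −2.71 to 2.09 on leaving out 1 tumor), and *Col9a3* at 2.12 in DESeq2, 0.43 in limma-voom and 1.42 without the 6 tumors (range −1.52 to 2.23). In limma-voom *Col22a1* was at −0.23 and *Col13a1* at −0.21. *Col18a1* was at 0.01 without the 6 tumors. Leaving out 1 tumor, *Col25a1* ranged from −0.43 to 2.35 and *Col7a1* from −0.95 to 0.40. The causes were not tested.
With 16 tumors as independent values the difference in *Col6a1*/*Col6a2* was −0.85 (permutation test over tumors, p adjusted over 8 pairs 0.00373), that in *Col1a1*/*Col1a2* 0.01 and that in *Col4a1*/*Col4a2* −0.05. Leaving out 1 mouse, the differences ranged from −0.08 to 0.14 for *Col1a1*/*Col1a2*, −0.02 to 0.30 for *Col5a1*/*Col5a2*, −0.04 to 0.06 for *Col4a1*/*Col4a2*, −0.48 to 0.04 for *Col6a3*/*Col6a1* and −0.44 to 0.08 for *Col11a1*/*Col5a1*. Depth limits low genes in Massa and Grilka, where 3 counts were worth 6.69 and 4.03 CPM.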
